A study of Homo sapiens with 12 samples.

Results

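The genes described here carry peptide presentation by major histocompatibility complex (MHC) class I molecules: the heavy chains HLA-B, HLA-C, HLA-E and HLA-F, the shared light chain B2M, the peptide transporter subunits TAP1 and TAP2, and the immunoproteasome subunits PSMB8 and PSMB9. They were chosen by symbol, as every gene probe whose name in the scanner files equals a listed symbol. They are 9 of the 30238 gene names on the array. The 9 genes have 14 of the 41000 gene probes on the array, and 12 of these probes, covering all 9 genes, passed the filter on signal and were among the 21870 probes tested. Rh30 is an established alveolar rhabdomyosarcoma cell line that carries PAX3-FKHR, a fusion transcription factor, and the arrays compared 3 cultures of it. WT is untransfected Rh30 grown without puromycin. CON is a clone that stably expresses a non-targeting shRNA, and KD1 is a single clone that stably expresses an shRNA against PAX3-FKHR from the pSUPER.retro.puro vector. Both clones were grown with 1 μg/ml puromycin. Cells of all 3 cultures were harvested 24 h after plating and 500 ng of total RNA was labeled. Each culture gave 2 RNA extracts, called biological replicates in the labels, and each pair of cultures was hybridized in both dye orientations, so that the 12 arrays hold 6 extracts with 4 arrays each. With 1 clone of each kind, an effect of the knockdown and a difference of the clone cannot be told apart, and p-values measure only the spread between these extracts.

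Class I heavy chains are membrane proteins that present short peptides from inside the cell to CD8 T cells and are also read by natural killer cells. The peptides are cut by the proteasome, in which the interferon-inducible subunits PSMB8 and PSMB9 can replace constitutive ones, carried into the endoplasmic reticulum by the TAP1 and TAP2 heterodimer, and loaded onto a heavy chain bound to B2M. HLA-B and HLA-C are classical, highly polymorphic heavy chains, while HLA-E and HLA-F are of low polymorphism. Low class I expression has been described in many tumor types, and several of the genes have promoter elements that answer to interferon or to the transactivator NLRC5.

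The heavy chain probes are shown because the genes are close relatives, and what a probe reports depends on how far its target differs from the others. An HLA-B probe (chr6:31431079-31431138, minus strand, NCBI36) and the HLA-F probe (chr6:29800992-29801051, plus strand) lie in the coding stretch of the immunoglobulin-like domain. Over the 55 bases where they overlap, 49 were identical (89.1%). The brightest HLA-B probe (chr6:31430895-31430954, minus strand) and an HLA-E probe (chr6:30567339-30567398, plus strand) lie in the transmembrane stretch, and 30 of 39 overlapping bases were identical (76.9%). Capitals mark the identical bases of each pair.
HLA-B, A_23_P125107: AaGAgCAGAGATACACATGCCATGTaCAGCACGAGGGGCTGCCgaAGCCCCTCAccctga
HLA-F, A_23_P145264: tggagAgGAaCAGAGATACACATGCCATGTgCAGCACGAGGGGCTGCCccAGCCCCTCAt
HLA-B, A_24_P113674: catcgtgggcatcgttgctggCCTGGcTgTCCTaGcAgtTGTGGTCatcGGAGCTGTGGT
HLA-E, A_24_P326082: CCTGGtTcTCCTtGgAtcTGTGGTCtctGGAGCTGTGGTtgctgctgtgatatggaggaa
The B2M probe (chr15:42795065-42795124, plus strand) is also coding and reads a gene on another chromosome. It is shown in lower case, as the probe behind the light chain values.
B2M, A_23_P37441: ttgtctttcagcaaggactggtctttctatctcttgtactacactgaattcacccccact
Transcripts of different class I heavy chains may share signal on the same probe, so the values below are given per probe and the heavy chains are not treated as independent measurements. The first HLA-B probe also shares 33 of 34 overlapping bases with an array probe that the files give no gene symbol.

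The 2 replicates differed for most of these genes, and the arrays behind them are described first. Between 64.4% and 73.6% of the gene spots were well above background in a channel, and no member probe was saturated. The dye-swap arrays of a pair correlated with r between 0.840 and 0.888 over 21870 probes in every pair except KD1 vs WT of replicate 2, where r was 0.448. The 2 replicates correlated with r of 0.697 for KD1 against CON, 0.460 for WT against CON and 0.370 for KD1 against WT, across probes, which are not independent. The 4 arrays without KD1 shared a slide, and those with KD1 were split between a pair of further slides by replicate, so that replicate and slide cannot be told apart for KD1. No probe reads the PAX3-FKHR junction. The 3 PAX3 probes had fitted log2 differences in KD1 of −0.41, −0.30 and −0.10 against CON and of −0.41, −0.24 and 0.06 against WT (limma adjusted p from 0.314 to 0.900). The tested FOXO1 (FKHR) probes had −0.43 and −0.40 against CON and −0.59 and −0.28 against WT (limma adjusted p from 0.286 to 0.503). None of these probes was called, so the knockdown could not be checked by a call on this array.

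The WT extract of replicate 2 stood apart in epithelial markers. EPCAM, an epithelial adhesion molecule, had a level of 164 on a linear signal scale there and was well above background in 4 of 4 hybridizations, while the other 5 extracts had levels from 3.4 to 3.9 and 0 such hybridizations. KRT19, a keratin, was at 441.6 there and between 26.1 and 49 elsewhere, and CDH1, the cadherin of epithelia, was at 17.7 against 3.4 to 5.4. Every WT value of replicate 2 below rests on that extract. Its part in the class I values was not tested, and the fits without it are given beside the calls.

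Values below are log2 ratios of the first culture over the other. An array value is the ratio on a single array, a replicate value is the mean of its dye-swap pair, and a fitted difference combines the direct and indirect ratios of both replicates. In replicate 1 the heavy chains were highest in WT, intermediate in CON and lowest in KD1. In replicate 2 the 3 cultures lay within 0.52 of each other on every heavy chain probe. HLA-B, a classical heavy chain, had the widest range in replicate 1, and HLA-E had it among the heavy chains in replicate 2.

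On its brightest probe (A_24_P113674), HLA-B had array values in KD1 vs WT of −2.10 and −2.11 in replicate 1 and −0.50 and −0.09 in replicate 2. The values were below 0 on all 4 arrays, but the fold was 4.31 in replicate 1 and 1.22 in replicate 2. In KD1 vs CON the array values were −0.93 and −0.90 in replicate 1 and 0.03 and 0.06 in replicate 2, so that the replicates lay on opposite sides of 0. In WT vs CON they were 1.23 and 1.23, then 0.29 and 0.32. These 4 arrays shared a slide, and both replicates had the same direction there with unequal sizes. The fitted difference in KD1 vs WT was −1.20 with a standard error of 0.41 and a 95% confidence interval from −2.22 to −0.18 (limma, adjusted p = 0.235). Its replicate values had a mean of −1.20 ± 1.28 (SD, n = 2). The other HLA-B probe (A_23_P125107) had replicate values of −2.05 and −0.39 in KD1 vs WT and of −0.98 and 0.02 in KD1 vs CON. Its WT vs CON array values were 1.03 and 1.17, then 0.34 and 0.42. These were close to those of the brightest probe in every comparison.

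HLA-C, the other classical heavy chain listed (A_24_P298409), had array values in KD1 vs WT of −1.92 and −1.98 in replicate 1 and −0.33 and −0.28 in replicate 2. All 4 were below 0, with a fold of 3.86 in replicate 1 and 1.24 in replicate 2. Against CON, the replicate values of KD1 were −0.78 and 0.01 and those of WT were 1.19 and 0.36. Its fitted difference in KD1 vs WT was −1.14 with a standard error of 0.38 (limma, adjusted p = 0.224).

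HLA-F (A_23_P145264), a low-polymorphism heavy chain, followed the same order with smaller values. Its replicate values were −1.42 and −0.13 for KD1 against WT, −0.70 and 0.09 for KD1 against CON, and 0.70 and 0.16 for WT against CON. The fitted difference in KD1 vs WT was −0.76 with a standard error of 0.32 (limma, adjusted p = 0.298).

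HLA-E, which presents leader peptides of other heavy chains to natural killer cell receptors, is measured by 3 probes, and they disagreed in replicate 2. The brightest (A_32_P460973) had replicate values of −1.10 and 0.37 in KD1 vs WT, −0.35 and 0.23 in KD1 vs CON, with 0.70 and −0.25 in WT vs CON. The sign differed between the replicates in each comparison. The transmembrane probe (A_24_P326082) had −1.09 and 0.50 in KD1 vs WT. The remaining probe (A_23_P30848) had −1.38 and −0.10 in KD1 vs WT, nearer to HLA-F than to the other HLA-E probes. It shares 35 of 41 overlapping bases (85.4%) with a probe of HLA-H, a further class I sequence, which was at −1.70 and −0.15. The transmembrane probe shares 37 of 42 (88.1%) with a probe named LOC100294102. Whether these probes share signal was not tested. The fitted difference of the brightest probe in KD1 vs WT was −0.34 with a 95% confidence interval from −1.21 to 0.53 (limma, adjusted p = 0.659).

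**Figure D1:**
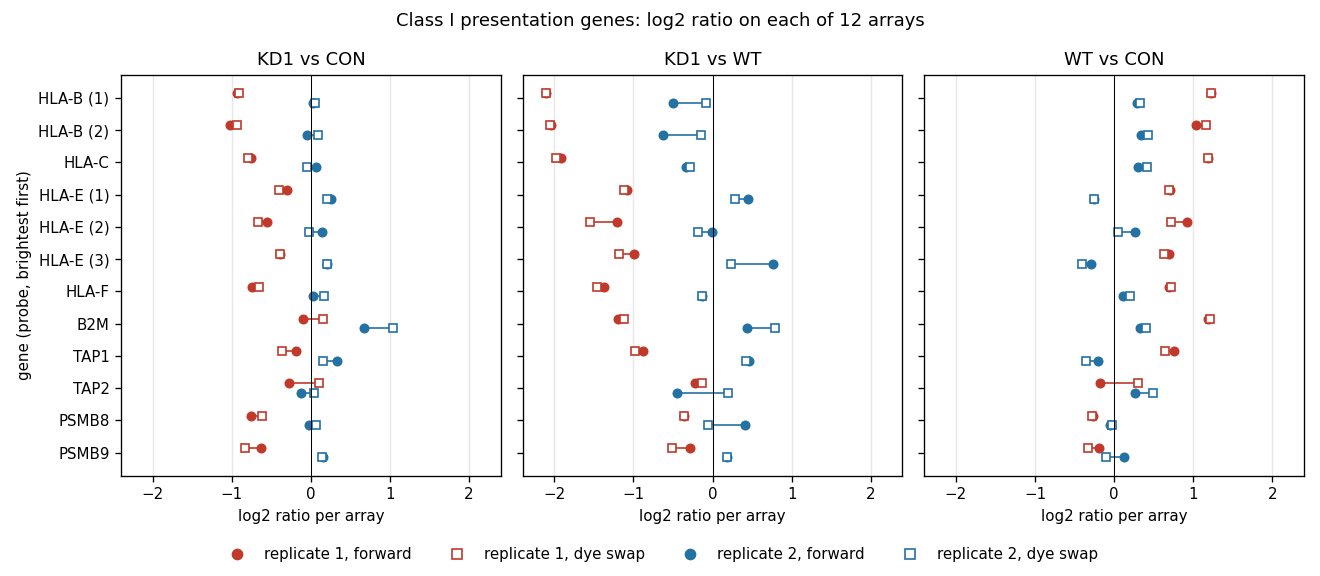
Log2 ratio on each array for the 12 tested probes, in 3 panels by comparison. Filled circles are forward and open squares dye-swapped arrays, joined within a pair, red for replicate 1 and blue for replicate 2. Pairs mostly sit closer together than the replicates, as for HLA-B in KD1 vs WT at −2.10 and −2.11 against −0.50 and −0.09. TAP2 is an exception there, at −0.22 and −0.13 against −0.45 and 0.19.

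B2M, the light chain that pairs with class I heavy chains, has a probe printed in 10 spots (A_23_P37441). It did not follow the heavy chains in KD1 vs CON, where array values were −0.10 and 0.15 in replicate 1 and 0.67 and 1.03 in replicate 2. In KD1 vs WT they were −1.19 and −1.12 in replicate 1 and 0.44 and 0.79 in replicate 2, on opposite sides of 0. In WT vs CON the array values were 1.19 and 1.21, then 0.33 and 0.41, with all 4 above 0. The fitted difference of KD1 was 0.46 against CON (limma, adjusted p = 0.618) and −0.30 against WT (limma, adjusted p = 0.739), and that of WT against CON was 0.76 (limma, adjusted p = 0.373). A second B2M probe (A_24_P740662) was above the negative control limit on 11 of 12 arrays and was not tested. Its dye-swap arrays disagreed, as in KD1 vs WT of replicate 2, where they were 0.09 and −1.94.

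TAP1, the first subunit of the peptide transporter (A_23_P59005), had replicate values of −0.93 and 0.44 in KD1 vs WT, −0.28 and 0.24 in KD1 vs CON, with 0.70 and −0.28 in WT vs CON. The order of the cultures was WT, CON, KD1 in replicate 1 and the reverse in replicate 2, as on the brightest and the transmembrane HLA-E probe. On the remaining HLA-E probe (A_23_P30848) WT was highest in both replicates. TAP2, its partner, had the narrowest range over the cultures of all 9 genes in replicate 1, at 0.17. The tested TAP2 probe (A_23_P214444) had array values in KD1 vs WT of −0.22 and −0.13, then −0.45 and 0.19, and replicate values of −0.09 and −0.04 in KD1 vs CON, with a 95% confidence interval of the fitted difference from −0.62 to 0.22 in KD1 vs WT. The other TAP2 probe (A_23_P368067) was above the limit on 5 of 12 arrays, was well above background in 2 of 8 CON hybridizations and in 5 of 8 for KD1 and for WT, and was not tested.

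The immunoproteasome subunits PSMB8 and PSMB9 shared a pattern of their own, with CON and not WT highest in replicate 1. PSMB8 (A_23_P250629, chr6:32918001-32918468, minus strand) had array values in KD1 vs CON of −0.76 and −0.62 in replicate 1 and −0.02 and 0.06 in replicate 2. PSMB9 (A_23_P111000) had −0.64 and −0.83, then 0.15 and 0.15. In both genes the KD1 vs CON values of replicate 1 lay below 0 and those of replicate 2 around or just above it. In WT vs CON, PSMB8 had replicate values of −0.28 and −0.04 and PSMB9 had −0.26 and 0.01. The fitted difference in KD1 vs CON was −0.31 with a standard error of 0.23 for PSMB8 (limma, adjusted p = 0.561) and −0.27 with a standard error of 0.25 for PSMB9 (limma, adjusted p = 0.642).

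Levels of the 6 extracts, solved from the 3 ratios of each replicate and centered within the replicate, show these orders side by side. For HLA-B they were 1.11 in WT, −0.10 in CON and −1.01 in KD1 in replicate 1, and 0.20, −0.12 and −0.08 in replicate 2. For HLA-C they were 1.05, −0.14 and −0.91, then 0.22, −0.12 and −0.10. In replicate 2, CON and KD1 lay 0.03 apart for HLA-B and 0.02 apart for HLA-C. For B2M the levels were 0.79 in WT, −0.41 in CON and −0.38 in KD1 in replicate 1, and −0.08, −0.41 and 0.49 in replicate 2. B2M was thus lowest in CON in both replicates, by 0.03 below KD1 in replicate 1 and by 0.89 in replicate 2. For PSMB9 they were 0.05, 0.33 and −0.38, then −0.06, −0.05 and 0.11. The range over the 3 cultures was 2.12 for HLA-B in replicate 1 and 0.32 in replicate 2, whereas for TAP2 it was 0.17 and 0.28.

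**Figure D2:**
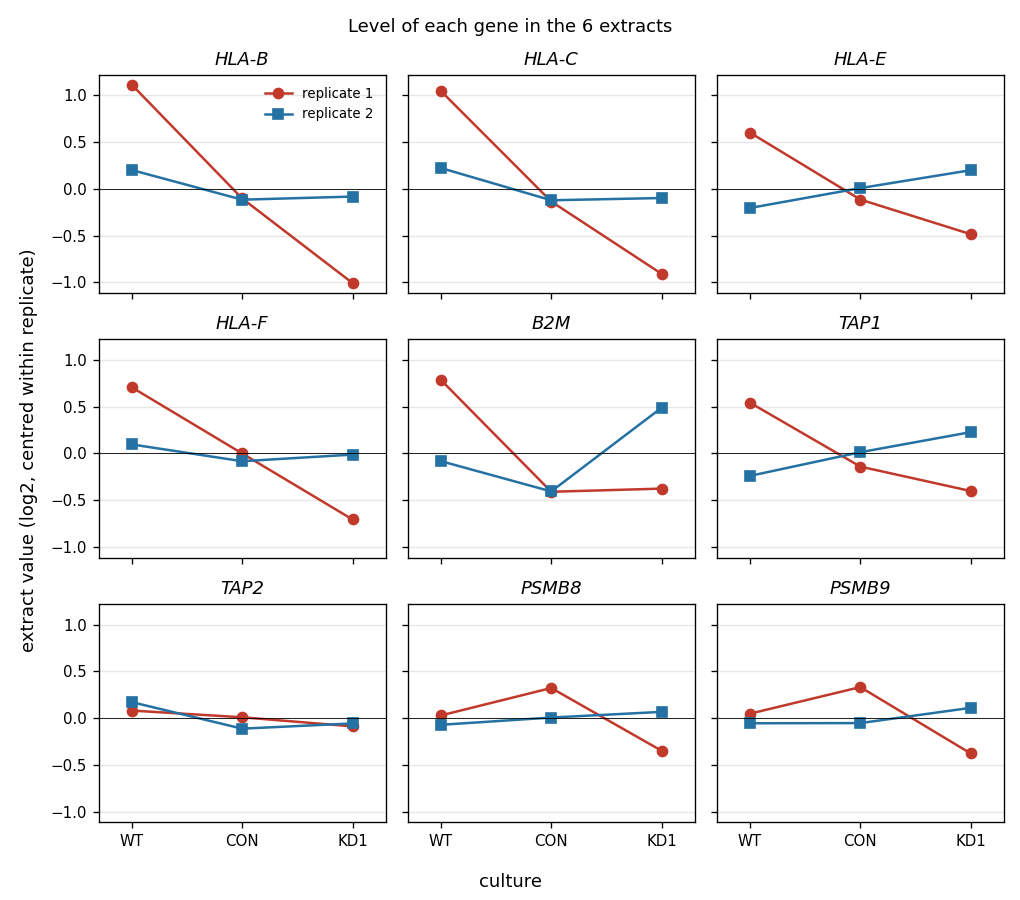
Level of the brightest tested probe of each gene in the WT, CON and KD1 extracts (log2, centered within each replicate), with replicate 1 in red circles and replicate 2 in blue squares. HLA-B runs from 1.11 to −1.01 in replicate 1 and from 0.20 to −0.12 in replicate 2, while TAP2 stays within 0.28 in both.

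By limma, 0 of the 12 member probes passed an adjusted p of 0.05 in any comparison, against 0.640% of all tested probes for KD1 against CON, 0.288% for KD1 against WT and 0.155% for WT against CON. At an unadjusted p under 0.05, 3 member probes were lower in KD1 than in WT, both HLA-B probes and HLA-C, and 0 passed in the other comparisons. All tested probes passed that threshold at 17.0%, 17.3% and 17.8% in the same order. A fit to the 12 single arrays, with a dye effect for each slide and the dye-swap pair as a random block, called 5 member probes in KD1 vs WT, both HLA-B probes, HLA-C, HLA-F and 1 HLA-E probe, together with 4403 of 21870 probes, and 0 in the other comparisons. It treats pairs that share an extract as independent. In the other fits run, 0 member probes were called. Among them were fits with a WT extract left out, chosen after seeing the data. Without the WT extract of replicate 2, the fitted difference in KD1 vs WT was −1.88 for HLA-B and −1.76 for HLA-C. Without the WT extract of replicate 1 it was −0.52 for HLA-B and −0.52 for HLA-C. With the rule of a mean of at least 2-fold and the same direction on all 4 arrays, which has no test, 3 of 13 member probes were lower in KD1 vs WT, again both HLA-B probes and HLA-C. The rule took 4.35% of all probes in that comparison. For KD1 against CON and WT against CON it took 0 member probes, and 3.94% and 4.41% of all probes. Replicate 1 decides this count, since 9 member probes met the rule on replicate 1 alone and 0 on replicate 2 alone. The 9 include the B2M probe that was not tested. Over all tested probes, 4.61% were at least 2-fold lower in KD1 vs WT of replicate 1. In replicate 2, 7.17% reached 2-fold in either direction. These shares carry no condition on single arrays.

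For the heavy chains, B2M and TAP1, the replicates lay farther apart than those of most tested probes in all 3 comparisons. TAP2 was an exception in each, its difference being reached by 87.6% of all tested probes in KD1 vs CON, and so were PSMB8 (63.6%) and PSMB9 (58.6%) in WT vs CON. The median difference between replicate values over the 9 brightest probes was 1.37 in KD1 vs WT, against 0.40 over all tested probes, 0.79 against 0.21 for KD1 and CON, and 0.83 against 0.34 for WT and CON. For HLA-B in KD1 vs WT the difference was 1.81, which 1.77% of all tested probes reached. In KD1 vs CON, 7 of 9 genes had opposite signs in the replicates, against 28.3% of all tested probes, the exceptions being B2M and TAP2. In KD1 vs WT this held for 5 of 9 genes against 43.3%, and in WT vs CON for 3 of 9 against 38.9%. In replicate 1, HLA-B, HLA-C, HLA-E, HLA-F and B2M were at least 2-fold lower in KD1 than in WT, 5 of 9 genes against 4.61% of all tested probes, and WT exceeded CON by 2-fold or more for HLA-B, HLA-C and B2M, 3 of 9 against 3.83%. In replicate 2, 0 of 9 genes reached 2-fold in either direction in KD1 vs WT, against 7.17%.

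**Figure D3:**
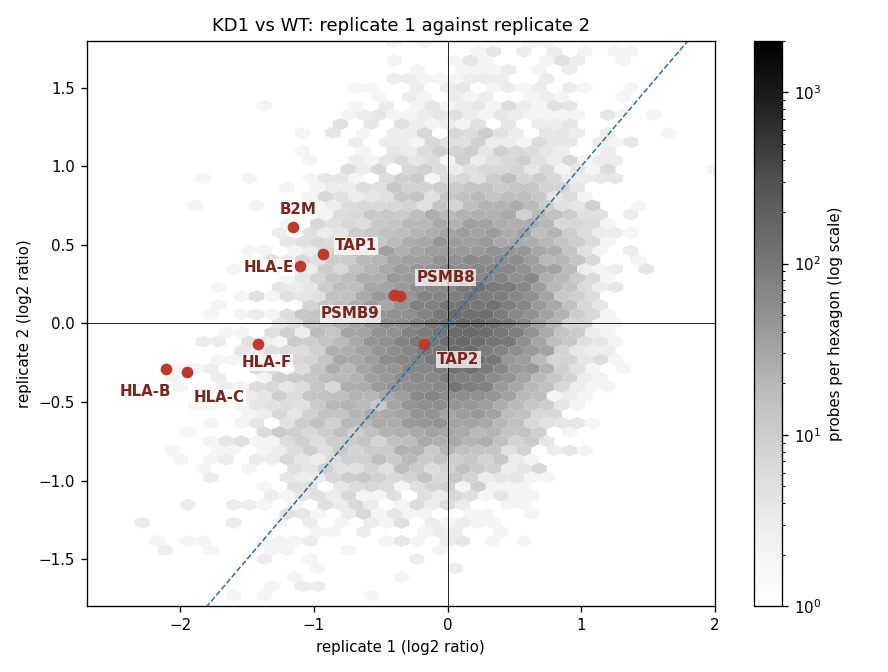
KD1 vs WT log2 ratio of replicate 1 (horizontal) against replicate 2 (vertical), with the brightest probe of each member in red over the density of all 21870 tested probes, cropped at the plotted range, and the dashed line where both are equal. HLA-B at −2.11 and −0.29 and B2M at −1.16 and 0.61 lie on the left edge of the cloud and off the line.

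The agreement of arrays within a replicate was as follows. The dye-swap arrays of a pair differed by a median of 0.08 over the 12 member probes in KD1 vs WT of replicate 1 and by 0.26 in replicate 2, the pair that stood apart. There the TAP2 arrays differed most of the member probes, by 0.64. The sum around the loop of 3 comparisons, which is 0 without error, had a median size of 0.04 in replicate 1 and 0.06 in replicate 2 for the member probes. When the KD1 vs WT pair of replicate 2 was left out and its difference taken by way of CON, an alternative chosen after seeing the data, the fitted difference in KD1 vs WT was −1.19 for HLA-B (limma, adjusted p = 0.249) and −1.15 for HLA-C (limma, adjusted p = 0.223). The same 3 probes met the 2-fold rule, and 0 member probes were called. The cause of the difference between the replicates was not tested.

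The class I heavy chain genes and pseudogenes HLA-G, HLA-H and HLA-J had values close to those of HLA-B and HLA-C. Their 3 tested probes had values from −1.91 to −1.70 in KD1 vs WT of replicate 1 and from −0.29 to −0.15 in replicate 2. In KD1 vs CON they ranged from −0.86 to −0.72, then from 0.02 to 0.05, and in WT vs CON from 0.93 to 1.09, then from 0.22 to 0.30. Sequence shared within the family may place signal of one heavy chain on the probe of another. In the list of further class I heavy chains and class I-like genes, 5 of 15 genes were tested and 0 called by limma, with 3 lower at an unadjusted p under 0.05 in KD1 vs WT. The fitted differences farthest from 0 in that comparison were HLA-J at −1.11 and HLA-G at −1.01. Those nearest to 0 were FCGRT, the neonatal Fc receptor heavy chain, at 0.09 and MICB, a ligand of natural killer cells, at −0.15. A further 138 tested probes that the files place in the MHC (chr6:29800787-33288150, NCBI36) had a median of 0.03 in KD1 vs WT of replicate 1 and 0.04 in replicate 2. They include probes without a gene symbol that lie beside the HLA-B, HLA-C and HLA-F probes and were as low in replicate 1, such as A_23_P314024 at −2.33, A_24_P101771 at −1.87 and A_24_P161933 at −1.67, which were chosen after their values were seen.

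The loading complex and peptide trimming list holds chaperones and peptidases of the endoplasmic reticulum. Of 9 tested genes 0 were called by limma in any comparison, and 1 was lower in KD1 vs WT and 2 higher in WT vs CON at an unadjusted p under 0.05. The median over the list in KD1 vs WT was −0.55 in replicate 1 and 0.15 in replicate 2, against 0.06 and −0.03 over all tested probes. PDIA3, a disulfide isomerase of the loading complex, had a fitted difference of −0.69 and CANX, the chaperone calnexin, of −0.48, while ERAP2, a trimming aminopeptidase, had 0.01 and SEC61A1, a channel subunit, 0.02.

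For the proteasome list, 18 of 18 genes were tested and 0 called by limma, with 1 lower in KD1 vs WT and 1 higher and 1 lower in KD1 vs CON at an unadjusted p under 0.05. Its median in KD1 vs CON was −0.08 in replicate 1 and −0.05 in replicate 2, beside −0.69 and −0.73 for PSMB8 and PSMB9 in replicate 1. Farthest from 0 in KD1 vs WT were PSME3, a proteasome activator, at −0.63 and PSMA5, a core subunit, at −0.44, and nearest were PSMB3 at 0.00 and PSMB7 at −0.03. Of the cytosolic peptidases, 7 genes were tested and 0 called by limma, with 1 lower in KD1 vs WT, 2 higher in KD1 vs CON and 3 higher in WT vs CON at an unadjusted p under 0.05. BLMH had −0.67 and LAP3 0.47 in KD1 vs WT, while NRD1 had −0.03 and THOP1 −0.11.

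The regulators list covers interferon signaling and the factors that bind class I promoters. Of 25 tested genes 0 were called by limma, with 1 higher in KD1 vs WT, 2 higher in KD1 vs CON, and 1 higher and 1 lower in WT vs CON at an unadjusted p under 0.05. The median in KD1 vs WT was −0.01 in replicate 1 and 0.13 in replicate 2. IRF1, an interferon-induced activator, had a fitted difference of 0.64 in KD1 vs WT and IFNGR1, a chain of the interferon-gamma receptor, of −0.46, while TYK2 had −0.01 and RFXANK 0.01. NLRC5, named for its role as class I transactivator after its values were seen, had replicate values of −0.22 and −0.43 in KD1 vs WT, −0.06 and 0.07 in KD1 vs CON, with 0.17 and 0.47 in WT vs CON. Other regulators, also named after their values were seen, had opposite signs in the replicates of KD1 vs WT. These were IRF7 at −0.59 and 1.08, IRF9 at −0.48 and 0.99, STAT2 at −0.73 and 0.64, and IFNAR2, an interferon receptor chain, at −0.43 and 0.91.

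MHC class II genes were mostly dim. Of 14 on the array 4 were tested and 0 called by limma, also at an unadjusted p under 0.05, and HLA-DRA, HLA-DPB1, HLA-DQA1, HLA-DMB and CD74 were well above background in 0 hybridizations. HLA-DMA, a class II peptide loading chain, had the fitted difference farthest from 0 in KD1 vs WT at 1.11, from replicate values of −0.40 and 2.62 on opposite sides of 0, followed by HLA-DOB at −0.12, and HLA-DOA at −0.01 and HLA-DRB1 at 0.06 the smallest. Among ligands of natural killer and T cells, 4 of 9 genes were tested and 0 called by limma, with 1 lower in KD1 vs CON and 1 lower in KD1 vs WT at an unadjusted p under 0.05. PDCD1LG2, a ligand of PD-1, had 1.32 and PVRL2, a nectin, −0.92 in KD1 vs WT, and CD274 had −0.03 and PVR −0.05.

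**Figure D4:**
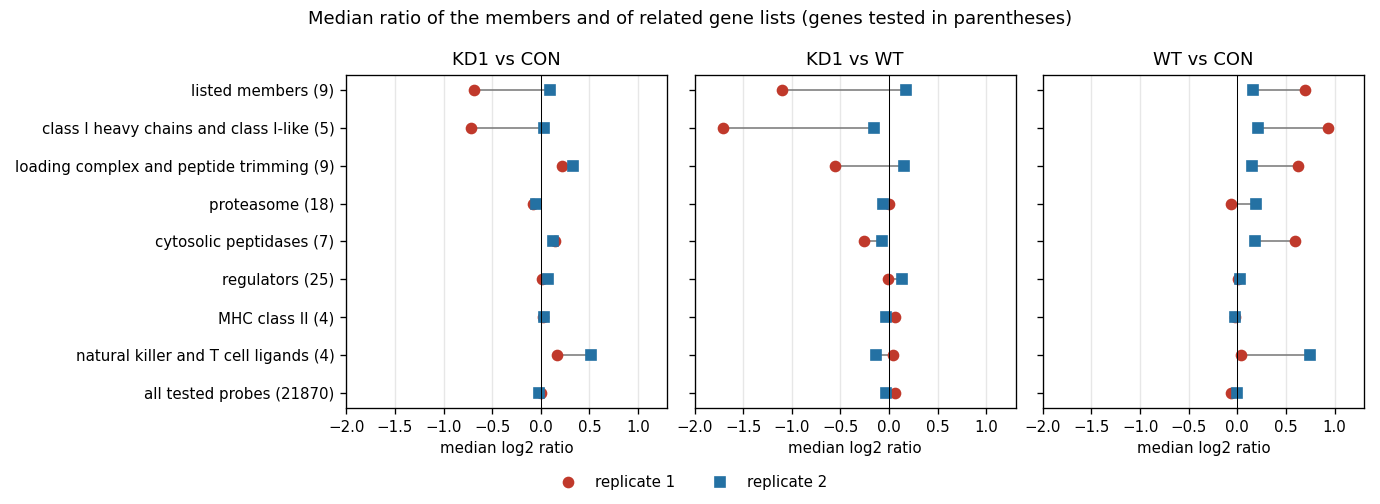
Median log2 ratio of the 9 members, of 7 related gene lists and of all tested probes, in replicate 1 (red circles) and replicate 2 (blue squares) for each comparison, with the number of genes or probes tested in parentheses. In KD1 vs WT the members are at −1.10 and 0.18 and the further class I genes at −1.70 and −0.15, while all tested probes are at 0.06 and −0.03.

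The cell type was checked with marker lists. Of 10 muscle lineage markers 9 were tested, MYOD1, MYOG, MYF5 and DES among them, each well above background in every hybridization. Their median in KD1 vs WT was −0.45 in replicate 1 and 0.15 in replicate 2. Of 10 leukocyte markers 2 were tested, CD14 and CD68, and PTPRC, MS4A1, HLA-DRA and CD74 were well above background in 0 hybridizations. The summed level of the leukocyte markers, on a linear signal scale, was 634 and 652 in KD1, 440 and 372 in CON, and 439 and 420 in WT. It was highest in KD1 in both replicates, mainly through CD68. That marker was at 316.5 and 275.7 in KD1, 125.4 and 72.2 in CON, and 168.5 and 145.7 in WT. Of 6 fibroblast markers 3 were tested. The sum over all 6 was 7658 and 3327 in WT, 3380 and 2678 in CON, and 4381 and 4010 in KD1. It was highest in the WT extract of replicate 1, where COL3A1 made up most of it at 6937.7. Within replicate 1, COL1A1 and PDGFRB were also highest in WT, but COL1A2 was highest in KD1. The fibroblast marker values in KD1 vs WT had a median of −0.78 in replicate 1 and 0.27 in replicate 2, and the part of these and of the muscle markers in the heavy chain values was not tested. Of 5 epithelial markers on the array 2 were tested, KRT8 and KRT18. The sum over all 5 was 2279 and 3446 in WT, 1633 and 1856 in CON, and 1607 and 1891 in KD1. It was highest in WT in both replicates, in replicate 1 through KRT18 only, at 1347 in WT, 686.9 in CON and 658.2 in KD1. KRT8 and KRT19 were lowest in WT there, at 898.6 and 26.1. EPCAM and CDH1 were well above background in 0 hybridizations of replicate 1. KRT18 was at −1.02 and −1.26 in KD1 vs WT. Of 5 endothelial markers 1 was tested, PECAM1, and the sum was 724 and 866 in WT, 1161 and 1195 in CON, and 856 and 1809 in KD1, lowest in WT in both replicates. The part of both lists in the class I values was not tested. In such bulk extracts fewer cells of a type and less RNA per cell cannot be told apart.

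Among 3345 tested probes of other named genes with a range of at least 1 over the extracts, the 5 whose 6 extract levels were most alike to the median of the members were ATG16L2 (r = 0.987), TMEM44 (r = 0.985 and 0.982 on a pair of probes), LTK (r = 0.985) and LOC728650 (r = 0.985). The members' median itself was 0.60 in WT, −0.10 in CON and −0.40 in KD1 of replicate 1 and between −0.08 and 0.07 in replicate 2. These correlations rest on 6 values from 3 cultures, and carry no test.

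Promoters were read from RefSeq (GRCh38.p14), which held entries for 8 of the 9 genes, and HLA-E was not matched. Over the 250 bases before the start, letters of known elements were searched on both strands: GAAANNGAA (core of the interferon-stimulated response element), TTCNNNGAA (interferon-gamma activated site), TGACGC (X2 box), CCAAT (Y box), GGGGATTCC and GGGGAATCC (enhancer A), ATTA (homeodomain site) and GTCACGC (paired domain site). CCAAT was in 6 of 8 genes and in 32.0% of all 35116 promoters, GAAANNGAA in 4 of 8 (HLA-F, B2M, TAP1 and TAP2) and 6.88%, TGACGC in 3 of 8 (HLA-B, HLA-C and TAP2) and 7.67%, and TTCNNNGAA in 2 of 8 (TAP1 and PSMB8) and 6.57%. Both enhancer A forms were in HLA-B, where they overlap, and in 0.253% and 0.308% of all promoters. ATTA was in 3 of 8 and in 47.4%, and GTCACGC in 0 of 8 and in 2.2%. RefSeq gave a pair of starts each for TAP1 and PSMB8, and the TTCNNNGAA letters of TAP1 lie before the start that is not shown. A listed gene was counted if any of its promoters matched, so the 8 genes had 10 promoters searched. The percentages are per promoter, so the counts and the percentages are not in the same unit. The promoters of HLA-B, B2M and TAP1 are shown as those of a heavy chain, the light chain and the transporter, whose order over the cultures differed in replicate 2. Capitals mark all matches other than ATTA.
HLA-B, chr6:31357180-31357429, minus strand: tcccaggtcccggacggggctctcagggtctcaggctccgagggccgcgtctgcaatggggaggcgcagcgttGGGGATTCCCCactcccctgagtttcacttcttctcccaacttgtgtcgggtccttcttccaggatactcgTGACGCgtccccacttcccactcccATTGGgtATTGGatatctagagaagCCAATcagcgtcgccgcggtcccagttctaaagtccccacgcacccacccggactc
B2M, chr15:44711267-44711516, plus strand: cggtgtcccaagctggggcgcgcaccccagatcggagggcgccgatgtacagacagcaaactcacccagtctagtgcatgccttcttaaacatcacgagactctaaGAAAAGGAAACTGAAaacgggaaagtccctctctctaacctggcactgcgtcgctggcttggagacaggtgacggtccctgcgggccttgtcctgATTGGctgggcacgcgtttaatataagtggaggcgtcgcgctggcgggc
TAP1, chr6:32853705-32853954, minus strand: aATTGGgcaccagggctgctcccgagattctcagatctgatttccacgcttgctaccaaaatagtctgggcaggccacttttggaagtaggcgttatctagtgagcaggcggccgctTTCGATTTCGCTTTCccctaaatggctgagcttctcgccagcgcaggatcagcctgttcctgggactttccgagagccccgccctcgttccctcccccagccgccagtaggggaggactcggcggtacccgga
The HLA-B stretch holds enhancer A, the X2 box letters that begin 106 bases before the start and a set of CCAAT letters. The B2M and TAP1 stretches each hold overlapping matches to GAAANNGAA, and the start of TAP1 lies 488 bases from that of PSMB9 on the opposite strand. In WT vs CON of replicate 1, TAP1 was at 0.70 and PSMB9 at −0.26. A match describes letters and says nothing of binding. The letters were fixed, so a promoter without a match may still hold another form of the element.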

How the data were processed

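Gene expression was measured on 12 two-color Agilent whole human genome arrays of 60-base probes. Agilent Feature Extraction 10.5.1.1 was used by the authors to read the scans, and they deposited linear intensity values with background subtraction and lowess normalization within each array, and a log10 ratio of red over green. They also deposited a table with the same ratios on the log2 scale, whose column medians are 0 and whose dye-swapped arrays are already turned. It was used as an alternative. Positions are those of the files (NCBI36).

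Log2 ratios were computed from the processed intensities without outlier-flagged spots, turned to a common direction and averaged over spots and over the dye-swap pair. The 3 ratios of a replicate were solved by least squares into 3 extract values. Probes were tested if, on each of the arrays, red or green signal after background subtraction was over a limit set by the 153 negative control spots (their 99th percentile). Extract values were fitted with limma 3.58.1 in R 4.3.3 (culture and replicate terms, 2 residual degrees of freedom, empirical Bayes), and p was adjusted by Benjamini-Hochberg over all 21870 probes with a threshold of 0.05. The replicate term follows the design, in which the 3 comparisons of a replicate share its extracts. The script was tested on simulated data. Gene lists use each gene's brightest probe and were given by counts, with the 2 most and 2 least changed genes in KD1 vs WT named, and all 9 members were described. The members and lists were chosen with earlier results of these data known. Alternatives were normexp with an offset of 50 and loess, median centring, the series table, other filters, no replicate block, direct ratios only, slide effects, each replicate left out and a 1.5-fold threshold, and, added later, an array pair or a WT extract left out. The number of arrays limits the precision. Results for 1 related gene are not reported here.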

Additional observations from a re-analysis of the deposited data

How the results depend on the processing

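With 2 extracts per culture the tests have few degrees of freedom, and the number of calls over all probes depended on the fit. In KD1 vs CON the fit reported above called 140 probes, and 0 were called with normexp and loess, 25 with median centring, 48 with a filter on probes well above background in both channels, 357 with direct ratios only and 4258 with slide effects. In KD1 vs WT it called 63, and the numbers were 0, 6, 13, 86 and 4403 in the same order. In WT vs CON it called 34, and the numbers were 1, 4, 13, 133 and 4516, with 84 without a filter. With a WT extract left out, chosen after seeing the data, the fit has 1 residual degree of freedom and called from 1213 to 1311 probes in KD1 vs CON, from 77 to 423 in KD1 vs WT and from 97 to 274 in WT vs CON. The lone WT extract is assumed to vary like the other cultures. Without the WT extract of replicate 1, KD1 vs WT was above 0 for HLA-E (0.2675), B2M (0.354) and TAP1 (0.345), and WT vs CON was below 0 for HLA-E (−0.349), HLA-F (−0.0138) and TAP1 (−0.3757). Without that of replicate 2, the 9 genes kept their directions, with WT vs CON at 0.8651 for HLA-E, 0.9064 for HLA-F and 0.8086 for TAP1.

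Of the member probes, 0 were called in each comparison, and this changed only with slide effects, to 5 in KD1 vs WT. The fitted difference in KD1 vs WT was then −1.20 for HLA-B (limma, adjusted p = 0.0206), −1.14 for HLA-C (0.0156) and −0.76 for HLA-F (0.0373). Over all alternatives with a test, the adjusted p in KD1 vs WT ranged from 0.0206 to 0.399 for HLA-B and from 0.0156 to 0.348 for HLA-C. The direction of the fitted differences of the 9 brightest probes was kept in every fit to all 6 extracts except for TAP2 in KD1 vs CON, which was 0.0029 with normexp and loess and 0.0393 with no replicate block, against −0.02. With replicate 1 left out, KD1 vs WT turned above 0 for HLA-E (0.40), B2M (0.57), TAP1 (0.47), PSMB8 (0.14) and PSMB9 (0.16), and KD1 vs CON for every gene other than B2M, which was above 0 throughout, while WT vs CON turned below 0 for HLA-E (−0.21) and TAP1 (−0.25). With replicate 2 left out, KD1 vs WT was −1.0862 for HLA-E, −1.1623 for B2M and −0.9445 for TAP1. Without the replicate block, 189 probes were called for KD1 against CON, 86 for KD1 against WT and 39 for WT against CON, and 0 member probes. As a check of the pairing, the deviations of same-numbered extracts correlated with r of 0.541 for KD1 and CON, −0.072 for KD1 and WT and −0.021 for CON and WT, so the data give no sign of pairing between WT and the clones.

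The 2-fold rule took 3 member probes in KD1 vs WT, and from 0 to 9 with a replicate left out, 5 at 1.5-fold and 2 with median centring, where HLA-C no longer met it. In WT vs CON it took 0, from 0 to 4 with a replicate left out, and 5 at 1.5-fold. In KD1 vs CON it took 0 under every setting. The share of all probes that met the rule was not computed under these alternatives. The causes of these changes were not tested. The 12 tested member probes were well above background in every hybridization. That of TAP2 was the dimmest, with a mean log2 signal of 7.28. Its sum around the loop in replicate 2 was −0.29, as large as its range of 0.28 over the cultures there.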
